A study of Canis lupus familiaris with 20 samples.

Results

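Muscle of 4 dogs labelled DMD affected was compared with muscle of 4 dogs labelled normal across all genes on the array. Membership was read from the disease state label of each sample, which placed 16 of the 20 arrays of the study, from 8 of its 10 dogs, in the comparison. The other arrays came from escapers, dystrophic dogs known for a mild course, and entered neither the comparison nor its estimate of spread. DMD stands for Duchenne muscular dystrophy. The labels give every dog the same age, 2 years, and give the tissue as muscle; breed, dystrophin allele, sex, muscle and treatment are not given in the sources used here. Each dog was hybridised on 2 canine Agilent arrays with opposite dyes, Cy5 and Cy3, against a common reference that the labels describe as RNA of a single normal individual. All values below are log2 ratios of a dog over this reference, averaged over the 2 arrays of the dog, so that the dog is the replicate (n = 4 per group). A value of 0 equals the level in the reference, and a difference of 1 is a factor of 2.

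Dystrophin anchors the actin cytoskeleton of the muscle fibre to a complex of membrane proteins and through it to the surrounding matrix. Without it, fibres tear during contraction and pass through cycles of necrosis, invasion by macrophages and regeneration from satellite cells, the stem cells of muscle. As the cycles repeat, fibrous tissue and fat take the place of fibres, and surviving fibres are known for a disturbed energy metabolism. Regenerating fibres are recognised by embryonic and neonatal contractile proteins that adult fibres no longer make.

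In the affected dogs, 9 of 17 tested macrophage and myeloid markers, 4 of 16 cytokine, chemokine and receptor genes and 6 of 37 matrix genes outside the fibrillar collagens rose, against 2.37% of all tested genes. Some risen members, such as FCGR1A, CXCL8 and COL12A1, were not well above background on any normal array. They passed the filter on dim probes through affected dogs alone, so these counts are not independent of the difference. Of 37 genes of respiratory complex I 3 fell, against 1.65% of all tested genes, and all 37 had negative differences. LGALS3, a lectin abundant in macrophages, was 6.78-fold higher in affected dogs, and LARP6, which binds collagen messenger RNA, was 4.03-fold higher. ROGDI, a leucine zipper protein, was 6.38-fold lower, and ADK, the kinase that turns adenosine into AMP, was 3.26-fold lower. Among 15262 probes tested with limma, 622 passed an adjusted p of 0.05, of which 294 were higher and 328 lower (4.08% of the probes tested). Taking for each gene its brightest tested probe, 139 of 5865 genes rose and 97 fell. None of these 236 genes overlapped between the 4 affected and the 4 normal dogs. Over all tested genes, the lowest affected dog exceeded the highest normal dog in 515 genes (8.78%), and the highest affected dog stayed under the lowest normal dog in 566 (9.65%). Differences were positive in 3142 of all tested genes (53.6%) and negative in 2723. The counts of each gene list below stand against these shares and against those of risen and fallen genes.

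The genes that rose had a median log2 difference of 1.76 in the ratios as measured, which was beyond 2-fold in 133 of them and beyond 4-fold in 55. The genes that fell had a median of −1.40, with 80 beyond 2-fold and 16 beyond 4-fold. The 27 risen genes whose probe was not well above background on any array of normal dogs, and 2 fallen genes in the same position in affected dogs, have only a lower bound for their fold. Each of them passed the filter on dim probes through the other group alone. The median mean log2 signal was 8.75 for risen genes and 9.5 for fallen genes, against 9.98 for all tested genes. Relative to the reference, the group means of risen genes had a median of −2.07 in normal dogs and −0.30 in affected dogs. For fallen genes the medians were 1.23 in normal dogs and −0.17 in affected dogs. The affected mean lay nearer to the reference than the normal mean in 593 of the 622 called probes (95.3%), and in 74.4% of all tested probes, although the reference is labelled normal.

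**Figure D1:**
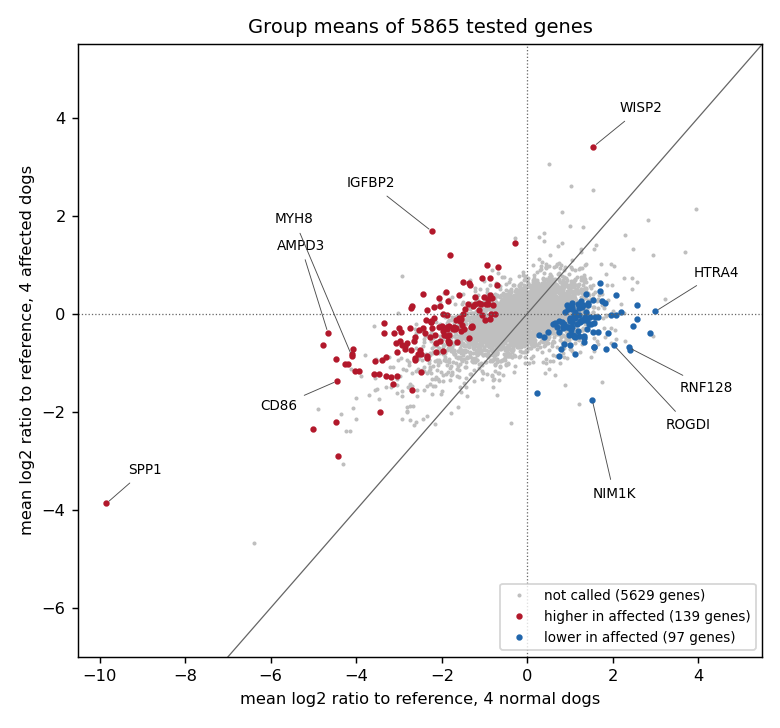
Mean log2 ratio to the reference of the 4 normal dogs (x axis) and of the 4 affected dogs (y axis) for each of 5865 tested genes, with the 139 risen genes in red, the 97 fallen genes in blue and the line of equality. Called genes spread along the x axis while most lie near 0 on the y axis, and SPP1 stands far to the left of all others.

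Because the reference was hybridised on every array, its channel was also compared between the arrays of the groups. The signals used were dye-corrected and centred on the median of each array, so this channel may not be independent of the dogs' RNA. The same test on the reference channel called 304 of 15262 probes (1.99%), of which 278 were brighter on arrays of affected dogs. Of the 622 probes called on the ratio, 16 were among them, a share no lower than the 1.99% of all tested probes. Over all tested probes the median absolute difference was 0.15 in the reference channel and 0.38 in the ratio. For called probes, which were chosen for their ratio difference, the medians were 0.15 and 1.56. No called gene differed more in the reference channel than in the ratio, which that choice made likely beforehand. Each of the 4 slides held 2 dogs of a single group, and the comparison has no term for slide. With slide as a random block, whose estimated correlation was −0.156, 1493 probes were called.

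Affected dogs varied more among themselves than normal dogs. The median SD over tested probes was 0.45 in affected dogs and 0.29 in normal dogs, and 73.4% of probes had the larger SD in affected dogs. The 2 arrays of a dog correlated at 0.844, 0.669, 0.758 and 0.576 in affected 1 to 4, and at 0.712 to 0.835 in normal dogs. In affected 4, 60.2% of probes were well above background in Cy5 and 35.0% in Cy3. The spread between dogs thus includes disagreement between arrays, whose part was not tested. Affected 1 stood apart from all other dogs. It lay beyond all 7 others in 62.0% of the tested genes, against 12.4% to 23.9% for each other dog, and its ratios correlated with those of the other dogs at −0.19 to 0.01 over tested probes. Pairs among affected 2, 3 and 4 correlated at 0.43 to 0.64, and pairs of normal dogs at 0.76 to 0.82; these correlations are across probes that share a reference. Among the 236 called genes, affected 1 was farthest from the normal mean in 97 and nearest to it in 48, while affected 4 was farthest in 84 and nearest in 22. Without affected 1 the test called 290 genes higher and 234 lower, and without affected 4 it called 12 and 9. Leaving out a normal dog left 6 to 23 genes higher and 8 to 17 lower. The p-values measure the spread between these 8 dogs and no wider set of animals.

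The array probes of 6 genes described in the next paragraphs, picked after their values were seen, are shown to fix what was measured. For each gene the first 30 of 60 bases follow, 5′ to 3′, with the position given in the array files, whose genome build is not given in the sources used here. Whether a probe lies in an exon or an untranslated region was not analysed.
LGALS3, chr8:34026479-34026538, plus strand: tggtgacatagatctcaccagtgcttcata
LARP6, chr30:37521009-37521068, minus strand: aggaggggaggctgaactgtagcaccagtc
DYNLRB2, chr5:74175532-74175591, minus strand: tagatctgctacagcccagcctgtcctatg
SPP1, chr32:14322376-14322435, plus strand: tggcttaatggtaacaccattgtaaactaa
ROGDI, chr6:39666304-39666363, plus strand: atgagctgtggcgccctcgcatttatttgc
ADK, chr4:28256842-28256902, plus strand: gaaacccaagcccaggagtacagatagtgc

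LGALS3 had log2 ratios of −3.79, −4.10, −3.57 and −4.25 in normal 1 to 4 and of −0.94, −1.57, −1.55 and −0.60 in affected 1 to 4. The 2 groups were far apart, with affected 4 the highest dog. The difference was 2.76 ± 0.28 (SE), with an adjusted p of 0.00697 by limma. DYNLRB2, a light chain of the dynein motor, read −1.86, −2.27, −1.62 and −2.47 in normal dogs and 0.68, 0.02, 0.18 and 0.36 in affected dogs. Its levels in affected dogs were close to the reference and those in normal dogs 5.15-fold lower on average (difference 2.37 ± 0.25, adjusted p 0.00756), a difference that came to 1.17 with background correction by normexp and loess normalisation of the scanner intensities. LARP6 read −2.48, −2.72, −2.31 and −2.10 in normal dogs and −0.25, −0.15, −0.77 and −0.40 in affected dogs. The groups were well separated (2.01 ± 0.22, adjusted p 0.00763), and both tested LARP6 probes were called. These 3 genes and ROGDI were called under each alternative that was tried. Of the 78 genes called and named here, 10 were called in all 8 fits that left out 1 dog: these 4, EDN3, SPA17, RNF128, HTRA4, ADK and PADI2. The others lost the call in at least 1 such fit: 51 to 65 of the 78 without a normal dog, 58 without affected 4, 27 without affected 2, 12 without affected 3 and 2 without affected 1. No difference of the 78 moved by more than 1.5 times when a dog was left out. Under normexp and loess 18 of the 78 were called and 43 of the 78 differences moved by more than 1.5 times, and in the dogs' own channel without the reference 71 were called. Of the 10 called in every fit without 1 dog, EDN3, SPA17, RNF128, HTRA4 and PADI2 lost the call under normexp and loess.

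EDN3, which encodes an endothelin peptide, was called well above background on 7 of 8 arrays of affected dogs and none of 8 of normal dogs. It passed the filter on dim probes through affected dogs alone. It was at least 1.44-fold higher in affected dogs (adjusted p 0.00793), and under normexp and loess it lost the call, at 0.535 (adjusted p 0.115). SPA17, a sperm protein with a domain like that of a protein kinase A subunit, rose by 1.92 ± 0.23 (adjusted p 0.0127; 0.75 under normexp and loess). COL8A1, a short-chain collagen of vessel walls, read −3.08, −3.08, −3.03 and −3.26 in normal dogs and −1.25, −0.51, −0.42 and 0.57 in affected dogs. The normal dogs were close together while the affected dogs were spread out, with affected 1 lowest and affected 4 highest, and the difference was 2.71 ± 0.34 (6.53-fold, adjusted p 0.0129). IFNAR1, a chain of the type I interferon receptor, rose by 2.24 ± 0.30 (adjusted p 0.0156), with only 1 of 8 arrays of normal dogs well above background, and under normexp and loess differed by 0.71 (adjusted p 0.109). CD109, a membrane protein that binds TGF-beta receptors, read −4.37, −4.00, −3.30 and −4.76 in normal dogs and −0.04, −1.0, −1.93 and −0.30 in affected dogs. Affected 3 was the lowest affected dog and still lay above every normal dog (3.29 ± 0.46, 9.76-fold, adjusted p 0.018). TMEM218, a small membrane protein, rose by 2.13, and SLC11A1, a metal transporter of phagocytes, by 2.86; both lost the call under normexp and loess, at 1.14 and 1.88. PLEKHO1, GRAMD3 and SPATA6 completed the 15 risen genes of smallest p, with GRAMD3 not well above background on any normal array and at least 1.73-fold higher. These genes lost the call under normexp and loess, at 0.453, 0.695 and 0.756.

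SPP1, which encodes osteopontin, a secreted glycoprotein of macrophages and injured muscle and a known modifier of the disease, had the largest difference among tested genes. Its log2 ratios were −9.89, −9.96, −9.13 and −10.39 in normal dogs and −5.79, −3.15, −5.46 and −1.08 in affected dogs. The groups did not overlap, and among the affected dogs affected 1 was lowest and affected 4 highest. The difference was 5.97 ± 0.93 (62.7-fold, adjusted p 0.0226 by limma), with 4 of 8 arrays of normal dogs well above background. Under normexp and loess it was 3.77 (adjusted p 0.0875), and each fit that left out a normal dog lost the call, at 5.79 to 6.21. LTBP4, which binds latent TGF-beta and is another known modifier, differed by 0.28 ± 0.23 (adjusted p 0.479), and its 2 tested probes had opposite signs.

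ROGDI read 1.90, 2.06, 1.54 and 2.61 in normal dogs and −0.74, −0.39, −0.77 and −0.69 in affected dogs. All affected dogs lay below the reference and all normal dogs above it, and the difference was −2.67 ± 0.25 (adjusted p 0.00681). RNF128, a ubiquitin ligase known from T cell anergy, read 2.43, 2.02, 2.58 and 2.46 in normal dogs and −0.02, −0.43, −1.36 and −0.96 in affected dogs. HTRA4, a secreted serine protease, read 3.29, 3.18, 2.59 and 2.93 in normal dogs and −0.14, −0.12, 0.83 and −0.39 in affected dogs. Neither was well above background on any array of affected dogs, so their folds are bounds: RNF128 was at least 1.67-fold lower and HTRA4 at least 1.66-fold lower (adjusted p 0.00697 for each). Under normexp and loess both lost the call, at −0.704 and −0.558 (adjusted p 0.0813 and 0.0902). ADK read 1.77, 1.79, 1.49 and 1.51 in normal dogs and −0.46, −0.06, 0.21 and 0.05 in affected dogs. All 3 of its tested probes were called, with a difference of −1.71 ± 0.20 for the brightest (adjusted p 0.0127).

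Other genes that fell have roles in several compartments. PADI2, which converts arginine of proteins to citrulline, fell by 1.83 on the log2 scale, RNASEH2C, a subunit of ribonuclease H2, by 2.24, and FZD7, a Wnt receptor of satellite cells, by 1.54. CLYBL, a mitochondrial enzyme, fell by 1.43, DDO, which oxidises D-aspartate, by 2.16, and the kinase NIM1K by 3.27. GALNT13, which starts O-glycosylation, fell by 3.14 on the log2 scale, and under normexp and loess differed by −0.54 (adjusted p 0.13). RHOBTB1, an atypical small GTPase, fell by 1.93, and THAP4, FAM169A and CE10 by 1.39, 2.57 and 1.43. The adjusted p of these genes ran from 0.0129 to 0.0195. PADI2, FAM169A and GALNT13 were well above background on only 1 of 8 arrays of affected dogs. NIM1K was so on 2 of these 8 arrays, FZD7 on 3 and CE10 on 4. Under normexp and loess PADI2, FZD7, FAM169A, CE10 and NIM1K lost the call, at −0.40, −0.43, −0.48, −0.46 and −1.63, and DDO kept it at −1.38.

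**Figure D2:**
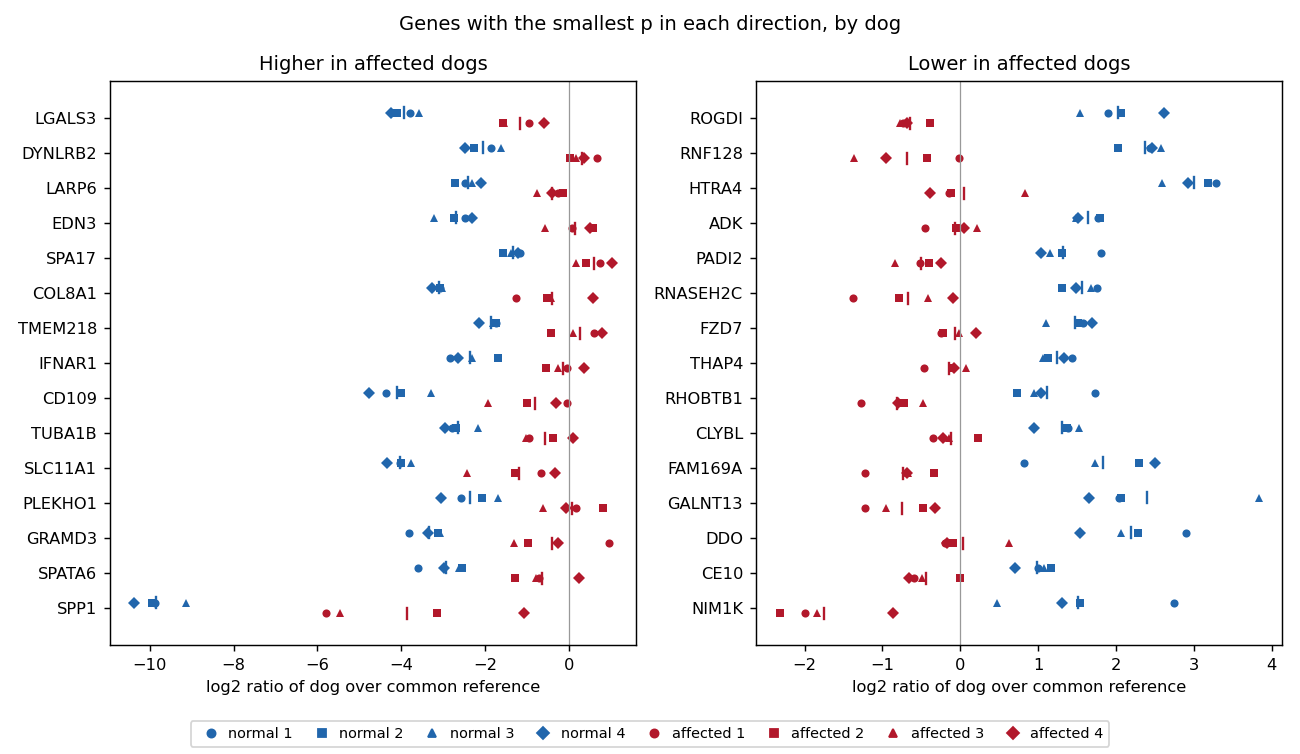
Log2 ratio of dog over reference (x axis) for the 15 risen genes (left) and the 15 fallen genes (right) with the smallest p, 1 symbol per dog and a bar at each group's mean of 4 dogs. Blue and red symbols do not overlap in any gene, and SPP1 lies between −10.39 and −1.08.

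Several of the probes with the smallest p carry no gene symbol, and 3 in each direction are given by what the array files hold. A probe described there as a fragment of the laminin alpha 2 subunit, a chain of the basal lamina of muscle fibres, read −2.34, −1.52, −1.73 and −1.82 in normal dogs and 0.47, 0.33, 0.82 and 0.48 in affected dogs. It was well above background on 0 of 8 arrays of normal dogs and 6 of 8 arrays of affected dogs (adjusted p 0.00681). A second probe was described as a LAMB1 protein fragment and was well above background on 0 and 7 of 8 arrays (adjusted p 0.00756). The third risen probe lay 3140 bases from the probe of TGFBR3, a co-receptor for TGF-beta that also rose (2.15 ± 0.23 and 1.59 ± 0.31 on the log2 scale). Among fallen probes, the one described as Tax interaction protein 40 read 1.17, 1.14, 0.99 and 1.24 in normal dogs and −0.86, −0.71, −0.76 and −0.82 in affected dogs, the smallest SE of these 6 (−1.92 ± 0.16, 3.79-fold, adjusted p 0.00467). A fallen probe on chromosome 4 lay 6880 bases from the probe of RHOBTB1 and fell by 2.44 on the log2 scale. The last probe, on chromosome 5 and described as unknown in the array files, was not well above background on any array of affected dogs (adjusted p 0.00467). The first 30 bases of these probes follow, 5′ to 3′.
Laminin alpha 2 fragment, chr1:71068561-71070546, plus strand: tgagagctttgaatgacactttgggaaaag
LAMB1 fragment, no position given: ggagccgcttaaaaaccattggggatctct
Near TGFBR3, chr6:60275523-60275582, plus strand: tttcctgtttgttttatctgggggttgttc
Tax interaction protein 40, chr5:84795185-84795244, minus strand: ggtgggggtttttagcttgctcacagggcc
Near RHOBTB1, chr4:16179383-16179442, minus strand: cccatctatgagcctggacaaaaaagggaa
Unknown, chr5:45072941-45073000, minus strand: tagacagaaaccaggctacttgcaaactac

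Dystrophin itself was not called. DMD read 0.31, 0.79, 0.61 and 0.08 in normal dogs and −2.22, 0.12, 0.91 and 0.01 in affected dogs, and affected 1 lay far below all other dogs (−0.74 ± 0.58, adjusted p 0.46). Without affected 1 the difference was −0.10, and under normexp and loess it was 0.03. In normal dogs 7 of 8 arrays had DMD well above background, and in affected dogs only 3 of 8. The DMD ratios of affected dogs therefore rest largely on dim signal, and a lack of change cannot be read from them. A level of messenger RNA at this probe does not check the labels, since the position of the dystrophin mutation is not given. Of 15 genes of the dystrophin complex on the array, 11 passed the filter on dim probes and 1 rose, SNTB2, a syntrophin of the submembrane scaffold (1.50 ± 0.33, adjusted p 0.0452). The median difference of the 11 was 0.01 against 0.05 over all tested genes. UTRN, the autosomal relative of dystrophin, was not well above background on any of 16 arrays. JAG1, a Notch ligand, and MSTN, the growth inhibitor myostatin, were well above background on 1 and 2 of the 16 arrays, and none of these 3 was tested.

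Membrane repair depends on calcium-binding proteins that gather at a torn membrane, and 3 of 14 tested genes rose, against 2.37% of all tested genes. ANXA4, an annexin, read −1.31, −1.84, −2.13 and −2.02 in normal dogs and −0.25, −0.10, −0.84 and −0.51 in affected dogs, with no overlap (1.40 ± 0.25, adjusted p 0.0304). S100A11, a partner of annexins, rose by 2.02 ± 0.40 (adjusted p 0.0341), and ANXA1 by 1.76 ± 0.41 (adjusted p 0.0491). DYSF, the dysferlin whose loss causes a muscular dystrophy, differed by 0.15 (adjusted p 0.792). The median of the list was 0.63, and every affected dog had a higher list mean (0.36 to 0.84 relative to normal dogs) than every normal dog (−0.17 to 0.20). None of the 3 calls remained without normal 2, 3 or 4, or without affected 4.

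Of 24 macrophage and myeloid markers on the array 17 passed the filter on dim probes, and 9 of these rose. Beside LGALS3 these were GPNMB, a glycoprotein of phagocytes, the Fc receptor FCGR1A, the complement genes C1QA, C1QB and C1QC, CYBB, the catalytic subunit of the phagocyte oxidase, the integrin ITGAM, and CD86, a costimulatory molecule. CD86 had the largest difference of them (3.07, adjusted p 0.0488), while FCGR1A, not well above background on any normal array, was at least 1.41-fold higher. GPNMB read −4.44, −4.84, −4.07 and −4.55 in normal dogs and −3.29, −2.25, −2.24 and −1.03 in affected dogs (2.27 ± 0.43, adjusted p 0.0313; 0.80 under normexp and loess). Affected 1 was nearest to the normal dogs and affected 4 farthest from them. The same order held in the mean of the list relative to normal dogs, which was 0.81, 1.26, 1.32 and 2.41 in affected 1 to 4 and −0.28 to 0.33 in normal dogs.

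Not every macrophage marker was higher. CD68, a lysosomal membrane protein, differed by 0.11 (adjusted p 0.782), LYZ, lysozyme, by 0.48 and TYROBP, a signalling adaptor, by −0.58. The median of the 17 was 1.71 against 0.05 over all tested genes, and 0.69 under normexp and loess with 1 call. Without affected 4, or without any 1 normal dog, LGALS3 was the one marker still called, and without affected 1 there were 10 calls. In bulk tissue more cells of a type and more RNA of these genes per cell cannot be told apart.

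Most tested complement, chemokine and interferon genes had positive differences. C1QA, C1QB and C1QC, which form the recognition molecule of complement and also stand in the macrophage list, rose by 1.66, 1.47 and 1.21 (adjusted p 0.0348, 0.0479 and 0.0387), and were the 3 called of 19 tested genes of antigen presentation and complement. C1QA read −2.17, −2.95, −2.11 and −2.73 in normal dogs and −0.89, −1.21, −1.25 and 0.04 in affected dogs, again with affected 4 highest. C1QA and C1QB came to 1.01 and 0.97 under normexp and loess. Among 16 tested cytokine, chemokine and receptor genes, 4 rose. CXCL14, a chemokine of epithelia and monocytes, read −5.14, −4.79, −3.28 and −4.71 in normal dogs and −0.02, −2.68, −0.74 and −0.22 in affected dogs (3.56 ± 0.62, 11.8-fold, adjusted p 0.0273; 1.79 under normexp and loess). CXCL8, the neutrophil chemokine interleukin 8, was not well above background on any normal array and rose at least 1.24-fold (adjusted p 0.0226). TNFRSF1A, a TNF receptor, rose by 1.29 and CXCR4, the receptor of CXCL12, by 2.19, which came to 0.50 and 0.89 under normexp and loess.

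CCL2, the monocyte chemokine, differed by 3.35 without passing (adjusted p 0.0762), and TNF had a difference of −1.19 (adjusted p 0.0814). Of 14 tested interferon response genes 13 had a positive difference, but only STAT2, which relays the interferon signal, was called, at least 1.19-fold higher with no array of normal dogs well above background. Medians were 1.50 for the cytokine list, 1.21 for antigen presentation and complement, and 0.61 for interferon; under normexp and loess they were 0.45, 0.47 and 0.29 with no call in any. Without affected 4 these 3 lists had no call, and without a normal dog they had none except 2 in the cytokine list without normal 3. Beside these changes, the macrophage marker mean was higher in all 4 affected dogs, and its part in them was not tested.

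Lymphocyte and other blood cell markers were mostly too dim to test. Only 3 of 14 T and NK cell markers passed the filter, with a median of −0.15 and none called, and 1 of 4 B and plasma cell markers, JCHAIN, at 0.01. At an unadjusted p under 0.05 there was 1 T and NK cell marker in each direction, IL7R at 0.90 and NKG7 at −1.45. S100A8 and S100A9, calcium-binding proteins of granulocytes, differed by 1.31 and 0.71 (adjusted p 0.126 and 0.422). HBD, a globin of red blood cells, differed by −2.42 (adjusted p 0.229).

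**Figure D3:**
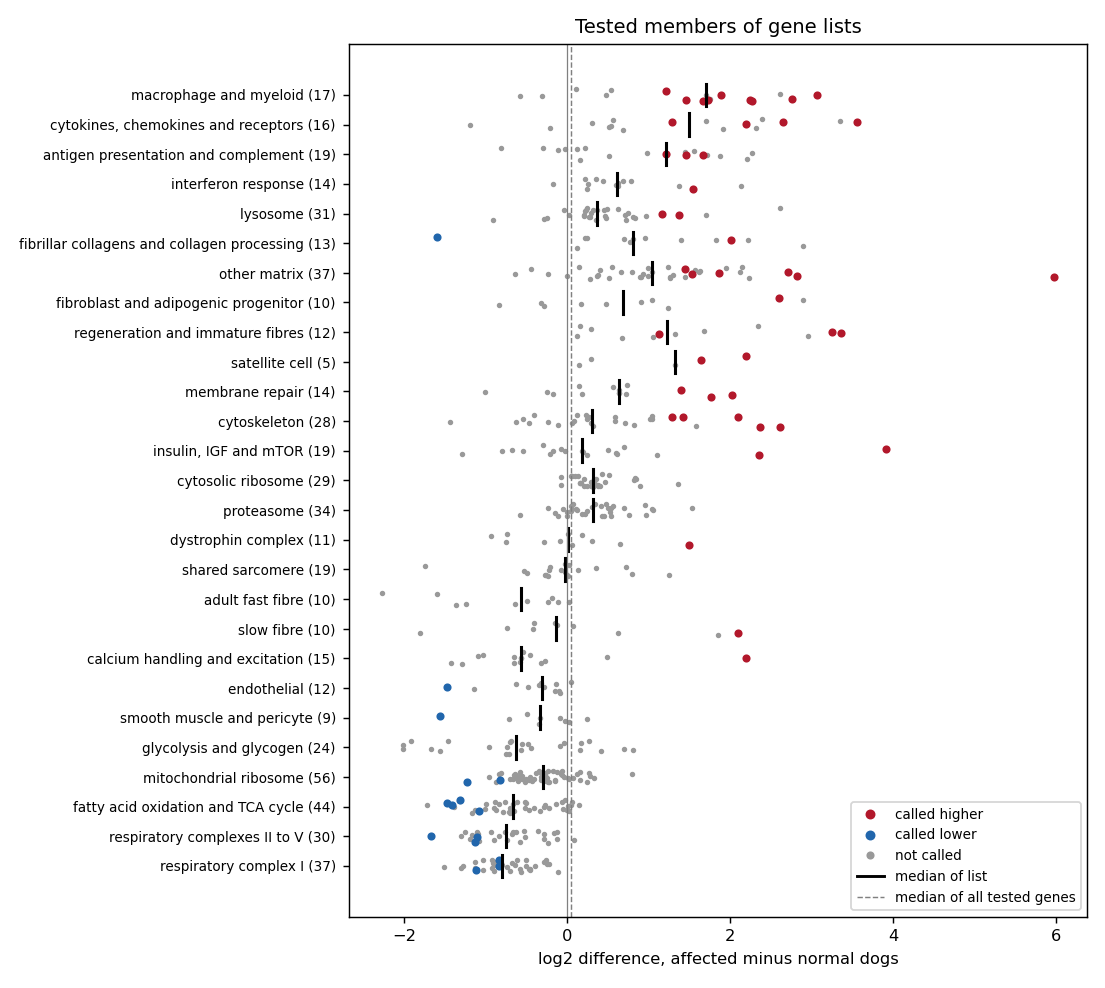
Log2 difference of affected minus normal dogs (x axis) for every tested member of 27 gene lists, with the number tested in brackets, red and blue points for called members, a bar at each list's median and a dashed line at the median of all tested genes (0.05). Macrophage, cytokine and matrix lists lie to the right, and all 37 complex I genes lie to the left of 0.

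Of 37 tested genes of the matrix outside the fibrillar collagens, out of 58 on the array, 6 rose: COL8A1, SPP1, COL12A1, LAMB1, WISP2 and TIMP1. COL12A1, a collagen that decorates fibrils, was not well above background on any normal array and rose at least 1.63-fold (adjusted p 0.0226). LAMB1, a laminin chain, rose by 1.53, WISP2, a matricellular protein, by 1.86, and TIMP1, an inhibitor of matrix proteases, by 1.45 (adjusted p 0.0273, 0.0322 and 0.0492). A further 27 had positive and 4 negative differences, with a median of 1.04 over the 37. List means relative to normal dogs were 0.72, 0.82, 1.26 and 2.03 in affected 1 to 4 and −0.25 to 0.34 in normal dogs. There were 12 calls without affected 1, 2 without affected 4, and 0 or 1 without a normal dog.

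Fibrillar collagens themselves varied between affected dogs. COL3A1, the collagen of loose connective tissue, read −2.73, −2.34, −2.12 and −3.70 in normal dogs and −5.16, 1.03, 1.44 and 3.36 in affected dogs, so that affected 1 was the lowest of all 8 dogs and the other affected dogs were the highest (2.89, adjusted p 0.282). Its probe was well above background on only 3 of 8 arrays of normal dogs and 6 of 8 of affected dogs. The order of its lower values therefore rests largely on dim signal. COL5A2, a collagen that sets fibril width, read −2.18, −2.62, −2.40 and −3.25 in normal dogs and −2.11, −0.60, 0.09 and 1.06 in affected dogs (2.22 ± 0.60, adjusted p 0.0717). Of 13 tested genes of fibrillar collagens and their processing, LARP6 rose and LEPREL2, a collagen prolyl hydroxylase, fell (−1.60, adjusted p 0.0231), although the 2 probes of LEPREL2 had opposite signs. At the called probe the reference channel itself was brighter by 0.65 on arrays of affected dogs, and the call was lost in the dogs' own channel (−0.97, adjusted p 0.0807) and under normexp and loess (−0.525). List means relative to normal dogs were −0.42 in affected 1 and 0.98 to 2.05 in affected 2 to 4, and without affected 1 there were 5 risen genes in place of 1. COL1A1, the main collagen of scar tissue, was called well above background on 2 of 16 arrays and was too dim to test. Markers of fibroblasts and adipogenic progenitors share COL3A1 with this list, so the 2 list means are not independent. Their mean was −0.64 in affected 1 and 0.65 to 1.84 in affected 2 to 4, against −0.29 to 0.32 in normal dogs. Their part in the collagen values was not tested. Of 10 tested markers 7 had positive and 3 negative differences. The 1 called was FAP, a surface protease of activated fibroblasts (2.60 ± 0.43, adjusted p 0.0266; 0.83 under normexp and loess).

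Growth factor and TGF-beta genes changed in few members. TGFBR3 was the single call among 14 tested genes of TGF-beta, BMP and activin signalling, not well above background on any normal array and at least 1.27-fold higher, and the median of that list was 0.11. IGF1, the growth factor of muscle repair, read −0.80, −2.24, −1.97 and −2.64 in normal dogs and −0.16, 0.30, 0.75 and 0.86 in affected dogs (2.35 ± 0.40, adjusted p 0.0273; 0.765 under normexp and loess). IGFBP2, which binds it, read −2.01, −2.39, −2.03 and −2.50 in normal dogs and 4.32, 0.04, 1.06 and 1.29 in affected dogs. Its difference of 3.91 ± 0.78 (15.03-fold, adjusted p 0.0338) was 3.03 without affected 1, the highest dog. The other 17 tested genes of insulin, IGF and mTOR signalling were not called, and the median was 0.18. No tested gene of Notch signalling was called among 10 by limma, and 1 had an unadjusted p under 0.05, APH1A, a gamma-secretase subunit, at −0.73 (adjusted p 0.0782).

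Of 12 tested genes of regenerating and immature fibres 3 rose, against 2.37% of all tested genes, and all 12 had positive differences. MYH8, the neonatal myosin heavy chain, read −3.86, −4.37, −3.66 and −4.55 in normal dogs and −3.29, −0.49, 0.18 and 0.17 in affected dogs. ACTC1, the cardiac actin that immature fibres make, read −3.99, −4.09, −4.11 and −4.16 in normal dogs and −3.33, 0.18, −0.56 and 0.81 in affected dogs. In both genes affected 1 lay close above the normal dogs and the other affected dogs far above them. The differences were 3.25 ± 0.71 for MYH8 (9.51-fold, adjusted p 0.045) and 3.36 ± 0.76 for ACTC1 (10.3-fold, adjusted p 0.0468), and 4.06 and 4.23 without affected 1. The MYH8 probe was saturated on 3 of 8 arrays of affected dogs, which limits its measured level there. H19, an imprinted non-coding RNA of immature muscle, rose by 1.13 ± 0.22 (adjusted p 0.0322). TNNT2, the embryonic troponin T, differed by 2.34 and CHRNA1, a subunit of the acetylcholine receptor, by 2.96, without passing (adjusted p 0.0617 and 0.08). The median of the list was 1.23, and 6 of the 12 were called without affected 1, 1 without affected 3 and 0 in each other fit that left out a dog.

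Satellite cell markers numbered 5 tested of 7, all with positive differences, and 2 of them rose, against 2.37% of all tested genes. CXCR4, which is also a receptor of leukocytes, and VCAM1, an adhesion molecule shared with endothelium, rose by 2.19 and 1.64 (adjusted p 0.0404 and 0.0479), and VCAM1 came to 0.595 under normexp and loess. MYF5, the determination factor of the muscle lineage, read −2.37, −2.19, −2.16 and −2.98 in normal dogs and −0.73, −1.63, −1.55 and −0.46 in affected dogs (1.33, adjusted p 0.0553), and was well above background on 1 of 8 arrays of normal dogs. The median of these 5 was 1.33, and 0.29 under normexp and loess. Calls numbered 2 without affected 1, 1 without affected 2 or 3, and 0 without affected 4 or a normal dog.

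Of 28 tested cytoskeletal genes 5 rose, against 2.37% of all tested genes: DYNLRB2, TUBA1B and TUBB2A, an alpha and a beta tubulin, STMN1, which destabilises microtubules, and EZR, which ties actin to the membrane. TUBB2A read −3.70, −3.50, −3.34 and −3.74 in normal dogs and −1.94, −1.16, −1.10 and 0.36 in affected dogs (2.61 ± 0.43, adjusted p 0.0248). TUBA1B rose by 2.09 ± 0.30 (adjusted p 0.0194), STMN1 by 1.42 and EZR by 1.29. Calls numbered 8 without affected 1, 3 or 4 without another affected dog, and 1 or 2 without a normal dog. TUBA4A, an alpha tubulin of adult muscle, had a difference of −1.44 without passing (adjusted p 0.106). JUP, plakoglobin, a protein of desmosomes, rose by 1.55 ± 0.30 (adjusted p 0.0319).

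Few adult contractile genes were called. None of 10 genes of fast fibres was called by limma and 2 had an unadjusted p under 0.05, MYLK2, a myosin light chain kinase, at −1.59 and MYBPC2, the fast myosin-binding protein C, at −2.27 (adjusted p 0.0932 and 0.13). The list mean relative to normal dogs was −2.96 in affected 1, −0.34 to 0.23 in affected 2 to 4 and −0.34 to 0.40 in normal dogs. The median was −0.57, and 0.11 without affected 1. MYOZ2, which binds calcineurin at the Z disc of slow fibres, read −3.06, −1.59, −2.47 and −1.60 in normal dogs and −0.42, 0.90, −0.77 and −0.06 in affected dogs and rose (2.09 ± 0.44, adjusted p 0.0404). It was the single call among 10 slow fibre genes, and MB, myoglobin, read −3.36 in affected 1 against −0.32 to 0.67 in the other affected dogs and 0.20 to 1.74 in normal dogs (adjusted p 0.205).

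Shared sarcomere genes had no call among 19 by limma, with 1 at an unadjusted p under 0.05, and a median of −0.02. CASQ2, the slow form of the calcium-storing protein calsequestrin, was the single call among 15 genes of calcium handling and excitation (2.20 ± 0.50, adjusted p 0.0472), while 13 of the 15 had negative differences. Under normexp and loess CASQ2 differed by 0.53 (adjusted p 0.167), and among the 8 fits that left out 1 dog it was called in 1, at 1.84 to 2.63. All 8 markers of skeletal muscle fibres were tested and none was called, with 1 at an unadjusted p under 0.05. Their mean was −1.54 in affected 1 and −0.16 to 0.42 in affected 2 to 4, against −0.14 to 0.17 in normal dogs; affected 1 was the lowest of the 8 dogs.

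Genes of the respiratory chain had negative differences nearly throughout, and a few of them fell. All 37 tested genes of complex I, which passes electrons from NADH to ubiquinone, had negative differences, from −1.51 to −0.11 with a median of −0.80. In 23 of them the highest affected dog was under the lowest normal dog, against 9.65% of all tested genes. Against a background of 1.65%, 3 of the 37 fell: NDUFAF5, an assembly factor, NDUFV3, an accessory subunit, and NDUFS8, which carries iron-sulfur clusters. NDUFAF5 read 0.52, 0.60, 0.74 and 0.71 in normal dogs and −0.35, −0.07, −0.22 and −0.11 in affected dogs (−0.83 ± 0.17, adjusted p 0.0343). NDUFS8 read 0.58, 0.63, 0.80 and 0.99 in normal dogs and −0.97, −0.08, −0.02 and −0.39 in affected dogs (−1.11 ± 0.25, adjusted p 0.045). Affected 1 was lowest in both, and it had the lowest list mean, −1.30, against −0.43 to −0.67 in the other affected dogs and −0.09 to 0.16 in normal dogs. Without affected 1, 36 of the 37 differences were negative, 11 genes fell and the median was −0.61. Calls numbered 2 without affected 3 and 0 in each fit that left out any other dog.

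Complexes II to V had 29 of 30 negative differences, a median of −0.74 and 3 fallen genes. COX5A, a subunit of cytochrome c oxidase, fell by 1.67 (adjusted p 0.0334), COX17, its copper chaperone, by 1.13, and COX11, another assembly factor, by 1.10. For COX5A and COX17 the reference channel was brighter by 0.88 and 0.87 on arrays of affected dogs, and their differences were −0.82 and −0.28 in the dogs' own channel and −0.77 and −0.50 under normexp and loess. Without affected 1 there were 9 fallen genes of complexes II to V and a median of −0.57; there were 3 without affected 3, 1 without affected 2 and 0 without affected 4 or without a normal dog. The mitochondrial ribosome, which makes the subunits coded in mitochondrial DNA, had 45 of 56 negative differences and a median of −0.29. Of the 56, 2 fell (3.57%, against 1.65% of all tested genes). They were MRPS14 and MRPL1 (−1.22 and −0.81, adjusted p 0.0297 and 0.0479), of which at most 1 was called without any dog other than affected 1. MRPS14 came to −0.295 under normexp and loess. Relative to normal dogs the list mean was −0.19, −0.255, −0.36 and −0.42 in affected 1 to 4, so that affected 1 was here the affected dog nearest to them.

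Of 44 tested genes of fatty acid oxidation and the TCA cycle 37 had negative differences, with a median of −0.66. Of the 44, 4 fell (9.09%, against 1.65% of all tested genes). They were IDH3A and IDH3G, subunits of the NAD-dependent isocitrate dehydrogenase, PDHA1, the subunit of pyruvate dehydrogenase that feeds the cycle, and SUCLG2, of succinyl-CoA synthetase. IDH3A read 1.27, 1.27, 1.35 and 1.21 in normal dogs and −1.05, −0.09, 0.44 and 0.18 in affected dogs (−1.40 ± 0.31, adjusted p 0.045). Its probe was saturated on 7 of 8 arrays of normal dogs, so that the level there, its spread and the size of the difference are limited by the scanner. PDHA1 fell by 1.47, IDH3G by 1.32 and SUCLG2 by 1.08. Affected 1 had the lowest list mean (−1.37) and affected 2 one of −0.03, between the normal dogs at −0.17 to 0.24. Without affected 1 the median was −0.37 with 8 fallen genes. Calls numbered 3 without affected 3, 0 without affected 2 or 4, and 0 or 1 without a normal dog. The muscle fibre markers beside these mitochondrial lists were lowest in affected 1, and their part in these values was not tested.

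Glycolysis and glycogen genes had no call among 24 by limma, with 7 lower at an unadjusted p under 0.05 and a median of −0.62. PGM1, phosphoglucomutase, and PFKM, the muscle phosphofructokinase, differed by −1.55 and −1.91 (adjusted p 0.0898 and 0.12), with affected 1 lowest in both. Among 9 genes of energy buffering and the purine cycle, AMPD3, an AMP deaminase, rose in the opposite direction to most of the list. It read −4.53, −3.70, −4.66 and −5.76 in normal dogs and 2.59, −0.58, −2.55 and −1.04 in affected dogs (4.27 ± 0.96, 19.3-fold, adjusted p 0.0467), and its difference was 3.27 without affected 1. Under normexp and loess it differed by 2.43 (adjusted p 0.19), and 5 of 8 arrays of normal dogs were well above background. CKMT2, the mitochondrial creatine kinase of muscle, read −3.32 in affected 1 and −0.39 to 0.40 in the other affected dogs, against 1.10 to 1.74 in normal dogs (adjusted p 0.0871).

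**Figure D4:**
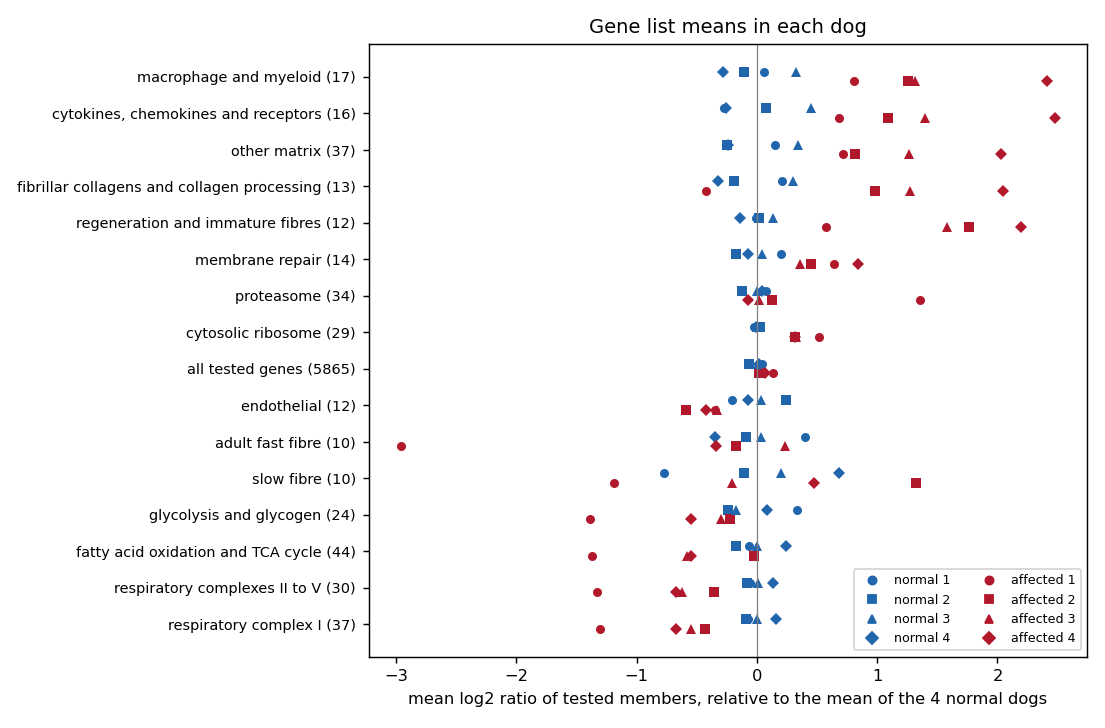
Mean log2 ratio of the tested members of 15 gene lists and of all tested genes in each dog, relative to the mean of the 4 normal dogs (x axis). Affected 1 (red circle) is the affected dog farthest to the left for the respiratory complex, fatty acid oxidation, glycolysis and fibre lists, and affected 4 (red diamond) is farthest to the right for the macrophage and matrix lists.

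Among vessel genes, KDR and VEGFB fell. KDR, the main receptor of VEGF on endothelium, read 1.39, 2.01, 1.75 and 1.80 in normal dogs and 0.17, −0.26, 0.30 and 0.84 in affected dogs, with no overlap (−1.48 ± 0.26, adjusted p 0.0289). It ran from −1.67 to −1.30 over the fits without 1 dog, and the call was lost without each normal dog. VEGFB, a VEGF relative linked to fatty acid uptake, fell by 1.11 ± 0.22 (adjusted p 0.0322), and VEGFA had a difference of −0.70 (adjusted p 0.0782). Of 12 tested endothelial markers 11 had negative differences, KDR was the one called, and the median was −0.30. Their mean relative to normal dogs was −0.59 to −0.33 in affected dogs and −0.20 to 0.24 in normal dogs, and its part in the KDR value was not tested. ACTG2, an actin of smooth muscle, fell by 1.55 (adjusted p 0.0306), the 1 call among 9 smooth muscle and pericyte markers.

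Lysosomal and stress genes had scattered calls. Of 31 tested lysosomal genes 27 had positive differences with a median of 0.37. Of the 31, 2 rose (6.45%, against 2.37% of all tested genes). They were the protease LGMN, by 1.37 ± 0.22 (adjusted p 0.0226), and the galactosidase GLB1, by 1.16 ± 0.26 (adjusted p 0.0455). CTSS, a protease of antigen-presenting cells, differed by 2.61 (adjusted p 0.0512). MAOB, a monoamine oxidase of the mitochondrial outer membrane, read 2.51, 3.06, 3.26 and 2.64 in normal dogs and 1.42, −1.74, 0.09 and −1.37 in affected dogs, with affected 1 nearest to the normal dogs (−3.27 ± 0.63, adjusted p 0.0321; −3.87 without affected 1). Under normexp and loess MAOB differed by −1.18 (adjusted p 0.0758), and it was well above background on 3 of 8 arrays of affected dogs. FTL, the light chain of ferritin, rose by 0.76 (adjusted p 0.0482). GLB1 and FTL came to 0.68 and 0.46 under normexp and loess. MT2A, a metallothionein, read −4.45 to −5.22 in normal dogs and 0.89, −3.18, −4.23 and −1.23 in affected dogs (adjusted p 0.104), and HSD11B1, which activates glucocorticoids, read 1.32 in affected 1 and −4.20 to −1.24 in the other affected dogs against 0.75 to 1.68 in normal dogs (adjusted p 0.118).

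Protein synthesis and breakdown had no call by limma. Of 29 tested genes of the cytosolic ribosome list 27 had positive differences with a median of 0.32, and 4 had an unadjusted p under 0.05. The median was 0.01 in the dogs' own channel. The smallest p of that list belonged to RPS19BP1 (0.82, adjusted p 0.101), a binding partner of a ribosomal protein and no ribosomal protein itself. Of 34 tested genes of the proteasome list, which holds PSME3IP1 and PSMC3IP although they are no subunits, 28 had positive differences with a median of 0.33, which was 0.01 without affected 1; the list mean was 1.35 in affected 1 and −0.07 to 0.12 in the other affected dogs. At an unadjusted p under 0.05 there was 1 proteasome gene in each direction. Among 18 genes of atrophy and autophagy none was called, with 1 higher and 2 lower at an unadjusted p under 0.05, and the median of 0.26 became −0.12 without affected 1. FASN, fatty acid synthase, was the 1 call among 8 genes of cholesterol and lipid synthesis, at least 1.28-fold higher with no array of normal dogs well above background (adjusted p 0.0483).

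**Figure D5:**
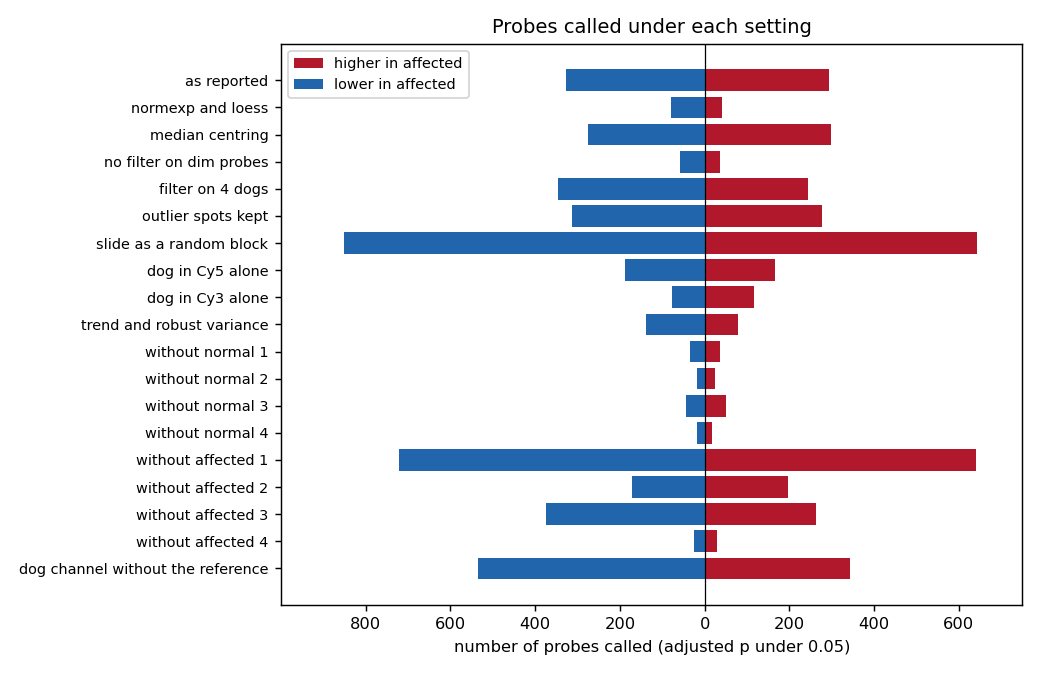
Number of probes called higher (red, right) and lower (blue, left) in affected dogs at an adjusted p under 0.05 (x axis) as reported, with 294 and 328, and under each alternative processing or without each dog. The count is lowest without normal 4 (35) and highest with slide as a random block (1493) and without affected 1 (1363).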

How the data were processed

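Muscle RNA of 4 normal and 4 affected dogs was measured on 16 two-colour Agilent arrays of 43451 spots. The arrays were scanned with Agilent Feature Extraction 9.5.3.1, and per the file headers the deposited intensities were background- and dye-corrected into processed signals. The deposited value table holds log2 ratios, which per the labels set dog against common reference; each column equalled the log2 ratio of the processed signals (r = 1), with swapped arrays already turned, so scale and direction are settled, while the columns were not centred (medians −0.17 to 0.25). Control spots and outlier-flagged spots were left out.

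The 2 arrays of a dog were averaged, which cancels a dye effect. Probes called well above background on both arrays, in the colour that held the dog's RNA, for no fewer than 2 of the 8 dogs numbered 15370 of 42034, and the 15262 with a value in every dog were tested. Groups were compared with limma 3.58.1 in R 4.3.3 (lmFit and eBayes, two-sided, Benjamini-Hochberg over tested probes, threshold 0.05), without the escapers; the script was tested on simulated data. Between 30.5% and 60.2% of probes per array were well above background, and 40 to 156 were saturated; the number of arrays limits the precision. A bound ("at least") compares the group means after loess and Aquantile normalisation. Signals of the dim group under the lowest signal called well above background on their array were raised to it. For EDN3 and GRAMD3 this step left the normal means unchanged, at 7.74 and 7.92. Their bounds are therefore only the differences measured under that processing. An adjusted p beside a bound belongs to the difference in the ratios.

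Gene names are those of the array design, brought up to date for names alone with a RefSeq table (assembly UU_Cfam_GSD_1.0): 12148 probes had a symbol (10269 genes) and 29886 had none. Each gene was represented by its brightest tested probe; among 937 genes with several tested probes, 179 had probes of opposite sign. Named genes are the 15 with the smallest p in each direction among called genes without overlap, up to 3 members of each list with the smallest unadjusted p under 0.05, and DMD, UTRN, MSTN, SPP1, LTBP4 and JAG1; other genes named from a list were chosen after their values were seen, and a few genes are not reported here. Members and lists were chosen with earlier results of these data known. Lists are described by counts and medians without a test. Alternatives were normexp (offset 50) with loess, median centring, other filters, flagged spots kept, slide as a random block, each dye alone, another variance estimate and each dog left out; the dogs' channel without the reference was added after the files were read.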

Additional observations from a re-analysis of the deposited data

Results flagged for a closer look

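In 268 groups of 4 dogs, the highest or lowest dog was set against the other 3 by Dixon's criterion, which chance alone meets in about 1 group in 20, and 11 groups met it, of which 10 are given here. Among normal dogs, normal 1 stood apart in CALR, a chaperone of the endoplasmic reticulum (−1.54), in IFI6, an interferon-induced gene (−2.88), and in NQO1, an oxidoreductase (1.11). Normal 3 stood apart in C1QC (−1.64) and in IL7R, a lymphocyte receptor (−0.33), and normal 4 in FTL (−0.98) and RPS19BP1 (−0.31). Among affected dogs, affected 1 stood apart in MCM7, a subunit of the replicative helicase (0.53). Affected 2 stood apart in STAT2 (−0.85) and affected 3 in DDO (0.62). Values are log2 ratios of the dog over the reference.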

How the results depend on the processing

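Directions were kept while counts moved: 99.7% to 100% of the 622 called probes had the same sign under each alternative. The count of called probes was 122 with normexp and loess, 96 without a filter on dim probes, 217 with a trended and robust variance, 356 with the dog in Cy5 alone, 194 with the dog in Cy3 alone, and 1493 with slide as a random block (estimated correlation −0.156). Leaving out 1 dog gave 35 to 1363. The share of called probes that were higher was 47.3% as reported, 34.4% with normexp and loess, 38.5% without the filter, 35.9% with a trended and robust variance and 59.8% in Cy3 alone. Median centring, a filter on 4 dogs, kept outlier spots and the dogs' own channel gave 574, 590, 592 and 877. Among the 134 named genes, the single difference that reversed was that of DMD, −0.74 as reported and 0.028 with normexp and loess (adjusted p 0.943); the cause was not tested. Of 46 lists with a median, 13 moved by more than the spread between dogs under some alternative. No paired analysis was possible because replicate numbers follow accession order and pair no dogs. Genes not well above background in 1 group have only a bound, and UTRN, JAG1, MSTN and COL1A1 could not be tested.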

Other observations

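The called genes given here lie outside the lists and were chosen after their values were seen. DLAT and PDHX, which with PDHA1 build the pyruvate dehydrogenase complex, differed by −1.77 and −1.41 (adjusted p 0.0273 and 0.0303). DLAT read 1.6, 1.0, 1.25 and 1.42 in normal dogs and −1.0, −0.06, 0.13 and −0.89 in affected dogs. LYRM7, an assembly factor of complex III, differed by −2.74 and MTFP1, a protein of mitochondrial fission, by −2.66 (adjusted p 0.0305 for each). In both genes affected 1 was lowest, at −1.92 and −1.52. Other fallen genes of mitochondria included COQ10B (−1.75), LIPT2 (−1.55), SLC25A3, the phosphate carrier (−1.17), HCCS, which attaches haem to cytochrome c (−1.04), OMA1 (−0.98) and MFF (−0.95).

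Risen genes were chosen in the same way. RSPO3, a Wnt agonist, read −2.84, −2.04, −1.71 and −0.61 in normal dogs and 2.08, 2.26, −0.10 and 0.52 in affected dogs (2.99, adjusted p 0.0388). PDGFD, a platelet-derived growth factor, differed by 2.82 (adjusted p 0.0435). FGF7, a fibroblast growth factor, was not well above background on any array of normal dogs (adjusted p 0.0483). FZD2, a Wnt receptor, differed by 2.44, S100A4, a marker of motile cells, by 2.14, LCP2, a leukocyte adaptor, by 2.22 and MNDA, a myeloid nuclear protein, by 1.73. RGS1, a regulator of G protein signalling in leukocytes, read −3.25, −3.62, −2.80 and −3.68 in normal dogs and −2.08, 0.08, −0.33 and 1.54 in affected dogs (3.15, adjusted p 0.0372). SMPDL3A, a lysosomal phosphodiesterase, differed by 4.14, with normal 3 at −1.97 and the other normal dogs at −5.35 to −5.99.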
